A study of Homo sapiens with 12 samples.

Results

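The genes described here encode the enzymes that modify drugs, steroids and reactive compounds: cytochromes P450 of families 1 to 4, UDP-glucuronosyltransferases (UGT1A and UGT2), glutathione S-transferases (GST) and sulfotransferases (SULT). They were chosen by name and biotype, by a rule that uses no measured value but was set with earlier results of these data known. Of 19951 protein-coding genes in the deposited table, 83 belonged to the set: 35 CYP, 19 UGT, 17 GST and 12 SULT genes. A mean of at least 1 FPKM (a fragment number divided by gene length in kilobases and by a divisor set for each library) in at least 1 of the 4 groups was reached by 25 of the 83, or 30.1%. The same level was reached by 12295 protein-coding genes, or 61.6%.

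The study concerns geniposide, an iridoid glycoside of gardenia fruit, in liver cancer cells, with DUOX1 and ferroptosis named in its title. Poly(A) RNA was sequenced from Huh7 cells treated with geniposide, untreated Huh7 cells, HepG2 cells treated with geniposide and untreated HepG2 cells. Cells were collected at 48 h, and each of the 4 groups had 3 samples. The labels call both human hepatoma lines and give no genetic change in any group, and no dose of geniposide is stated. Separate cultures are not named either, so p-values measure the spread between these samples only, which may be technical.

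In liver, cytochromes P450 add or expose a polar group using electrons handed on by the reductase POR. Transferases then attach glucuronic acid from UDP-glucuronic acid (UGT), sulfate from PAPS (SULT) or glutathione (GST). Transcription of these genes in hepatocytes is set by liver factors such as HNF4A and by sensors that bind foreign compounds: AHR for CYP1 genes, the pregnane X receptor NR1I2 and the constitutive androstane receptor NR1I3 for CYP2B, CYP2C and CYP3A genes, and NFE2L2 for several GST genes. Hepatocytes are known for high CYP3A4, CYP2E1, UGT2B7, GSTA1 and SULT2A1, while GSTP1 is scarce in them and common in tumours and other epithelia.

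Libraries held 15056655 to 17211659 recovered fragments, so that 3 fragments, the number a count of 0 allows, correspond to 0.161 to 0.212 FPKM in a gene of 1 kb. Such floors cover counting error only. The geniposide library of Huh7 replicate 3 stood apart from its group, with a chi-square per degree of freedom of 43.4 against replicate 1 and 44.9 against replicate 2. In the other 10 within-group pairs it was 2.2 to 6.58. Counts of calls in Huh7 are therefore given with and without this library, as are the members whose call it changes, while values of single genes outside the set include it. The liver label was checked against 16 hepatocyte genes: CPS1 was the single gene at 1 FPKM or more in every group. In HepG2 the 16 summed to 218.1 to 236.9 FPKM with geniposide and 237.2 to 246.2 FPKM without. In Huh7 the sums were 3.09 to 3.91 and 3.01 to 3.11 FPKM. CPS1 had 36076 to 39309 fragments per HepG2 library and 373 to 442 per Huh7 library. ALB was at 0 in all HepG2 libraries and at most 0.0637 FPKM in Huh7 libraries, APOB was at 0 throughout, and TTR reached at most 0.0482 FPKM. HNF4A averaged 0.00735 and 0.0163 FPKM in geniposide-treated and untreated Huh7 cells, and 0.238 and 0.252 FPKM in geniposide-treated and untreated HepG2 cells. NR1I2 had 0 fragments in all 12 libraries. AFP, the fetal liver protein by which hepatoma lines are often recognised, had 2 fragments in 1 geniposide-treated Huh7 library and none in the other 11 libraries. Of the other hepatoma genes, GPC3 reached 1 FPKM in both Huh7 groups and H19 in both HepG2 groups. The low hepatocyte genes, HNF4A, NR1I2 and AFP go against the liver label, while CPS1 and H19 in HepG2 and GPC3 in Huh7 do not. The identity of the lines was not tested, and Huh7 and HepG2 stand throughout for the libraries so labelled.

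Many members were near or below detection. No fragment of 18 members was found in any library, namely CYP2B6, CYP4B1, GSTA1, GSTA5, GSTM1, SULT1A4, SULT1C3, UGT1A3, UGT1A5, UGT1A8, UGT1A9, UGT1A10, UGT2A2, UGT2A3, UGT2B10, UGT2B11, UGT2B17 and UGT2B28. A further 33 members had 1 to 29 fragments over all 12 libraries together. Some members without a fragment share much of their sequence. Of their exonic bases, 93.2% in UGT2A2, 85.2% in SULT1A4 and 61.2% to 80% in the UGT1A genes listed lie in other same-strand genes. GSTM1 had 22.3%, and the others listed had no such overlap. No source used here states how shared fragments were assigned, so a 0 in these overlapping genes does not show absence of RNA. CYP3A4, the main drug-oxidising P450 of adult liver, had 28 fragments in all, UGT2B7 had 1, and CYP1A2 had 4. CYP2A6, which oxidises nicotine, had 28, CYP3A7, the fetal form of CYP3A, had 16, and UGT2B4, which glucuronidates bile acids, had 21. CYP2E1 and SULT2A1 were low but detected in Huh7, at 0.185 and 0.267 FPKM for CYP2E1 and 0.32 and 0.354 FPKM for SULT2A1 in geniposide-treated and untreated cells. In all, 32 members had at least 30 fragments, and 38 members had a mean above the level of 3 fragments per library in at least 1 group.

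By class, 9 of 35 CYP, 10 of 17 GST, 5 of 12 SULT and 1 of 19 UGT genes reached 1 FPKM in at least 1 group. Counted by group, 21 members did so in geniposide-treated Huh7, 16 in untreated Huh7, 15 in geniposide-treated HepG2 and 14 in untreated HepG2 cells. Both lines reached it for 12 of the 25 members, 7 of them GST genes. Many members lie in tandem arrays, and 67 of the 83 fell into 14 chromosomal clusters, of which 14 members reached 1 FPKM. Of the 16 members outside clusters, 11 did. On chromosome 4 none of 12 UGT2, SULT1B1 and SULT1E1 genes reached it, on chromosome 7 none of the 4 CYP3A genes, and on chromosome 10 none of the 4 CYP2C genes. The 6-gene CYP4F array on chromosome 19 was represented by CYP4F22, the 6-gene CYP2A, CYP2B, CYP2F and CYP2S array by CYP2S1, and the 9 UGT1A genes of chromosome 2 by UGT1A7.

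Summed over all 83 genes, the level was 345.7 ± 18.0 FPKM in geniposide-treated and 388.4 ± 8.88 FPKM in untreated Huh7 cells (SD, n = 3 each). In HepG2 it was 280.1 ± 17.5 FPKM with geniposide and 456.4 ± 3.64 FPKM without (SD, n = 3 each). The FPKM of all genes summed to 234790 to 307503 per library, so these sums are not on one scale. As a share of all FPKM, the members held 0.1453% in geniposide-treated and 0.1546% in untreated Huh7. In HepG2 the share was 0.0964% with geniposide and 0.1497% without. GST genes made up 87.6% and 92.0% of the sum over members in geniposide-treated and untreated Huh7 cells, and 90.2% and 94.9% in geniposide-treated and untreated HepG2 cells. GSTP1 by itself held 67.3% and 72.9% of the sum in geniposide-treated and untreated Huh7, and 39.4% and 42.8% in geniposide-treated and untreated HepG2. The CYP genes summed to 27.4, 28.2 and 18.99 FPKM in geniposide-treated Huh7 replicates 1, 2 and 3, against 18.1 to 19.2 FPKM in untreated Huh7. In HepG2 they summed to 15.99 to 17.01 FPKM with geniposide and 14.3 to 14.6 FPKM without. UGT genes summed to 0.0975 to 0.135 FPKM in geniposide-treated and 0.0237 to 0.191 FPKM in untreated Huh7, and to 1.82 to 2.13 and 0.5 to 0.682 FPKM in geniposide-treated and untreated HepG2. In bulk RNA, fewer cells expressing a gene and less RNA per cell cannot be told apart.

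**Figure D1:**
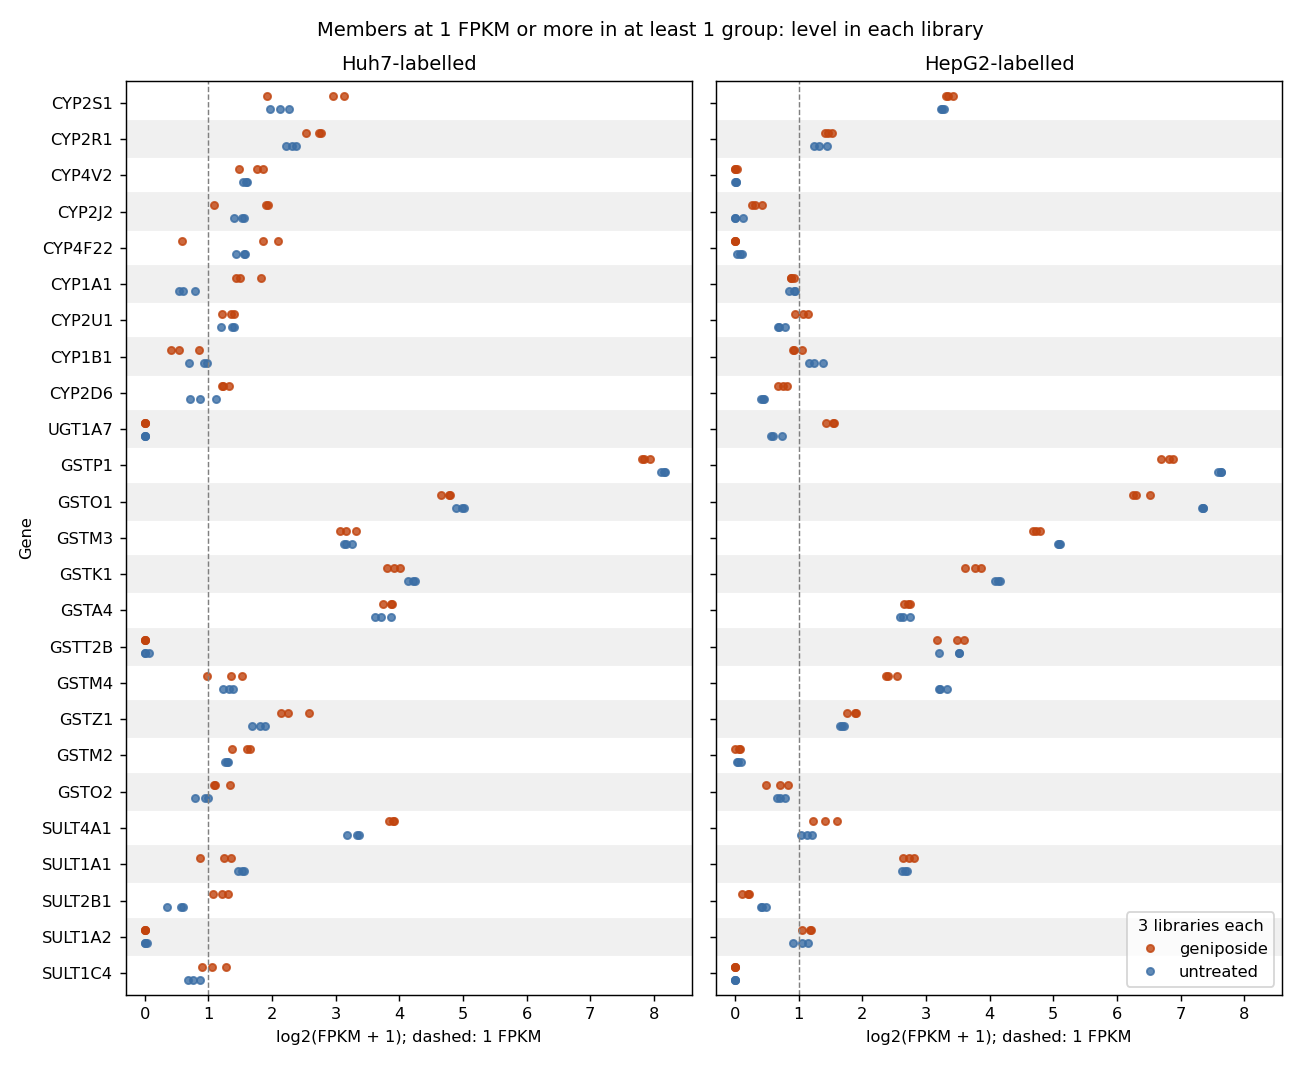
Level of the 25 members that reached a mean of 1 FPKM in at least 1 group, on a log2(FPKM + 1) axis, with 1 point per library, geniposide above untreated in each row, and genes ordered by class and level. GSTP1 lies farthest right in both lines, with GSTO1 close to it in untreated HepG2 and nearer to GSTK1 in Huh7, while UGT1A7, GSTT2B and SULT1A2 lie at or near 0 in Huh7 and CYP4V2, CYP4F22, GSTM2 and SULT1C4 at or near 0 in HepG2.

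Promoter sequences were available from RefSeq (GRCh38.p14, 250 bases before to 50 after the annotated start) for 67 members. Members with no entry included CYP1B1, CYP2C18, CYP2D6, CYP2F1, CYP4A11, CYP4A22, CYP4F12, GSTT2B, SULT1A1, SULT1A2, SULT4A1, UGT1A10, UGT2B17, UGT2B28 and UGT2B4. The members at 1 FPKM or more differed from the rest in CpG content. The ratio of observed to expected CpG had a median of 0.691 in 19 members at 1 FPKM or more and 0.135 in 48 members below it. It was over 0.6 in 12 of the 19 (63.2%) and in 2 of the 48 (4.17%), GSTM1 and GSTM5. Among protein-coding genes in general it was over 0.6 for 84.5% of 9734 at 1 FPKM or more and for 32.5% of 5162 below it, so the members lie in the same direction as the background at a lower share in both classes. GSTM3 had the lowest ratio of the 19, 0.0806, and UGT1A7 had 0.179. These shares are a description of gene sets that differ in many ways, and no test was made.

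The windows below are those of the genes on which the later results turn. GSTP1, GSTO1 and GSTM4 were lower with geniposide in HepG2, CYP1A1 was higher with it in Huh7 and UGT1A7 in HepG2, and CYP3A4 serves as a CpG-free window of a gene that was barely detected. Capitals mark matches, on either strand, to the xenobiotic response core GCGTG of AHR and to the antioxidant response core TGACNNNGC of NFE2L2, and no match of the first overlapped the second in these windows.
GSTP1 (chr11:67583562-67583861, + strand): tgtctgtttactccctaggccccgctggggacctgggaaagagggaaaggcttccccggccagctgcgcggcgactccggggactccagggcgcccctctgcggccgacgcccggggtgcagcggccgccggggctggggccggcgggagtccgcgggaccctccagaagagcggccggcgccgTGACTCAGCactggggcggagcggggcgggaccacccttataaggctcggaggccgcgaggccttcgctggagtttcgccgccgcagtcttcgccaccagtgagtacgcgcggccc
GSTO1 (chr10:104254642-104254941, + strand): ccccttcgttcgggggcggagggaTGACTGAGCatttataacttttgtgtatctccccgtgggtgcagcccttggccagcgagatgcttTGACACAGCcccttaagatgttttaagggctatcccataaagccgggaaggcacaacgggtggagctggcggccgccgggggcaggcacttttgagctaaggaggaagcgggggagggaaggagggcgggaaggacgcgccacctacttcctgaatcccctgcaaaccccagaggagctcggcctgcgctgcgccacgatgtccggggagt
GSTM4 (chr1:109655849-109656148, + strand): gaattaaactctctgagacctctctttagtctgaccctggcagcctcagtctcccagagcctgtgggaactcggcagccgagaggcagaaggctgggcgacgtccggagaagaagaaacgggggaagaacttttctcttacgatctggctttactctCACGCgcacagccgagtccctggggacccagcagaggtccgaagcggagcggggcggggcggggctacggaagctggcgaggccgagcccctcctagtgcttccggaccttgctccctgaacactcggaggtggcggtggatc
CYP1A1 (chr15:74725479-74725778, - strand): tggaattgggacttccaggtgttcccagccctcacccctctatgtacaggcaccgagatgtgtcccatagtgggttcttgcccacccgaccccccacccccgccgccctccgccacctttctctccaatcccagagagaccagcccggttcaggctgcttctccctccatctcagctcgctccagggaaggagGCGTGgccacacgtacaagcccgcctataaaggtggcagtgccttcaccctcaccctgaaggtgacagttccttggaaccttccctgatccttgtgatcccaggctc
UGT1A7 (chr2:233681651-233681950, + strand): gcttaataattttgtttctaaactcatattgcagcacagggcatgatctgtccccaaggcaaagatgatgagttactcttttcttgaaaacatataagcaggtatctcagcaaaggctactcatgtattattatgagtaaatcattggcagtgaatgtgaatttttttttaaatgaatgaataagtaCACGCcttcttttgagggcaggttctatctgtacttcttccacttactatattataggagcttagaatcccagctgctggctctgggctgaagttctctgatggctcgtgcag
CYP3A4 (chr7:99784135-99784434, - strand): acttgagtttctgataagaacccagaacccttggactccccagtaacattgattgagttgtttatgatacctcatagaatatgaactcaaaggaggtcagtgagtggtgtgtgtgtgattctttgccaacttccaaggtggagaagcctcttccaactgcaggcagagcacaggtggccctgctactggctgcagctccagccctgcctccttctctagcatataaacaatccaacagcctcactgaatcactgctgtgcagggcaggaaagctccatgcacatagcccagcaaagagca

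GCGTG was found in 19 of the 67 member windows (28.4%), in 44.4% of 14896 windows of protein-coding genes and in 36.3% of all 27305 RefSeq windows. At 1 FPKM or more it was found in 52.6% of members and 51.7% of protein-coding genes. Below that level the shares were 18.8% and 30.8%. TGACNNNGC was found in 14 of 67 (20.9%), in 14.3% of the windows of protein-coding genes and in 13.6% of all windows. The match in GSTP1 begins 66 bases before the start, those in GSTO1 226 and 161 bases before it, and those in CYP1A1, UGT1A7 and GSTM4 57, 63 and 93 bases before it. The GSTO1 window lies inside the longer gene span of the deposited table, since the RefSeq start differs. A match describes the letters of the window and no binding was measured.

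**Figure D2:**
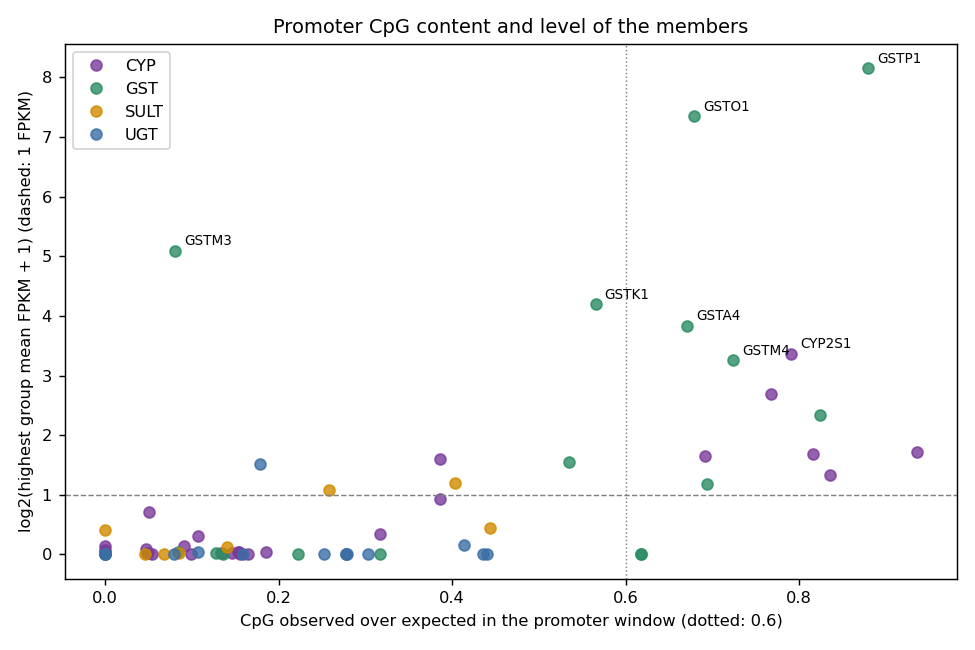
Ratio of observed to expected CpG in the 300-base promoter window (x axis) against the highest group mean of the gene as log2(FPKM + 1) (y axis), for the 67 members with a RefSeq window, coloured by class. Members above the dashed line at 1 FPKM lie mostly to the right of 0.6, with GSTM3 at upper left as the clearest exception, and 46 of the 48 members below the line lie to the left of 0.6.

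With geniposide in Huh7 cells 7 members rose and 4 fell past the threshold (limma, Benjamini-Hochberg adjusted p under 0.05 over 15518 genes at 1 FPKM or more in at least 3 libraries). Of the 83 members, 24 passed that filter, and the other 59 were read from the same model fitted to all 58735 genes. CYP1A1, SULT2B1 and GSTO2 reached 1 FPKM only in geniposide-treated Huh7 libraries and passed the filter through that group alone. The count of rises among filtered members in Huh7 is therefore not independent of the filter. Outside that group CYP2D6 reached 1 FPKM only in untreated Huh7 replicate 1, at 1.18 FPKM, so it too needed the group to pass. The calls of CYP1A1 and SULT2B1 in Huh7 held with no filter. Those of CYP2D6 were lost with no filter, in Huh7 and in HepG2 (limma adjusted p = 0.0576 and 0.076). Among all filtered genes 34.5% were called in this comparison, 16.4% higher and 18.1% lower, so 11 of the 24 members is not far from the background share. In the fit without the filter 7.25% of all genes were called, 3.65% higher and 3.60% lower, and none of the 59 members read from it was. The median difference of the 24 was 0.05 in log2(FPKM + 1), and 0 over all filtered genes. Among those that rose were 3 CYP and 2 SULT genes, and no CYP gene fell past the threshold, while GST genes moved in both directions.

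The aryl hydrocarbon P450 CYP1A1 (chr15:74719542-74725610, - strand, hg38), which oxidises polycyclic hydrocarbons, had 1.82, 1.71 and 2.54 FPKM in geniposide-treated Huh7 libraries, against 0.454, 0.519 and 0.721 FPKM in untreated ones. The groups did not overlap, and replicate 3 was the highest of the treated libraries. The log2 difference was 0.94 ± 0.11 (SE; limma adjusted p = 0.000104), a 3.59-fold higher mean. Its sister CYP1B1, which hydroxylates oestradiol, averaged 0.534 ± 0.251 FPKM with geniposide and 0.83 ± 0.191 FPKM without (SD, n = 3 each), did not pass the test, and shares 12.9% of its exonic bases with genes on the opposite strand. CYP2R1, the hydroxylase of vitamin D, rose to 5.85, 5.68 and 4.76 FPKM with geniposide, against 3.66, 4.21 and 4 FPKM without. CYP2D6, which metabolises many basic drugs, had 1.39 ± 0.0905 FPKM with geniposide and 0.884 ± 0.274 FPKM without (SD, n = 3 each; log2 difference 0.35, limma adjusted p = 0.0215). That call was lost in 4 of the other fits and when single libraries were left out, and 13.5% of the 100-base stretches of CYP2D6 also occur in other genes.

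Among sulfotransferases in Huh7, SULT2B1, which sulfates cholesterol and its oxidised forms, had 1.10, 1.31 and 1.47 FPKM with geniposide, against 0.511, 0.274 and 0.492 FPKM without. All treated libraries lay above all untreated ones, with a log2 difference of 0.69 ± 0.10 (SE; limma adjusted p = 0.000451) and a 3.04-fold higher mean. SULT4A1, a brain-type member of the family without a settled substrate, had 13.3, 14.0 and 14.0 FPKM with geniposide, against 8.02, 9.30 and 9.09 FPKM without (log2 difference 0.59 ± 0.09 SE, limma adjusted p = 0.000786). It was the most abundant sulfotransferase in this line in both states. SULT1A1, which sulfates small phenols, fell to 1.37, 1.56 and 0.833 FPKM with geniposide, against 1.77, 1.93 and 1.89 FPKM without (limma adjusted p = 0.0229), a call lost with the 2 Huh7 groups fitted alone, with no filter and without untreated replicate 2 or 3.

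The most abundant member, GSTP1 (chr11:67583595-67586656, + strand, hg38), the pi-class transferase, had 229, 245 and 224 FPKM in geniposide-treated Huh7 libraries, against 287, 276 and 286 FPKM in untreated ones. Every treated library was below every untreated one, and the mean was 1.22-fold lower (log2 difference -0.28 ± 0.06 SE, limma adjusted p = 0.00323). GSTK1, the kappa-class enzyme of mitochondria and peroxisomes, averaged 14.0 ± 1.09 FPKM with geniposide and 17.3 ± 0.681 FPKM without (SD, n = 3 each), and GSTO1, an omega-class enzyme that reduces glutathionylated proteins and dehydroascorbate, 25.9 ± 1.4 and 30.3 ± 1.44 FPKM. Both were called lower, at limma adjusted p of 0.0115 and 0.0362, but GSTO1 lost its call in 6 of the other fits and GSTK1 with the replicate block. GSTZ1, which isomerises maleylacetoacetate in tyrosine breakdown, had 3.40, 3.77 and 5.01 FPKM with geniposide, against 2.53, 2.71 and 2.23 FPKM without, and was called higher (limma adjusted p = 0.00329, and 0.0517 with the 2 Huh7 groups fitted alone). GSTM2, a mu-class enzyme, was 1.34-fold higher with an adjusted p of 0.0443 in the same limma fit, and lost its call in 7 of the other fits. The alpha-class GSTA4, specific for the lipid peroxidation product 4-hydroxynonenal, averaged 13.2 ± 0.741 FPKM with geniposide and 12.3 ± 1.13 FPKM without (SD, n = 3 each) and did not pass the test.

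**Figure D3:**
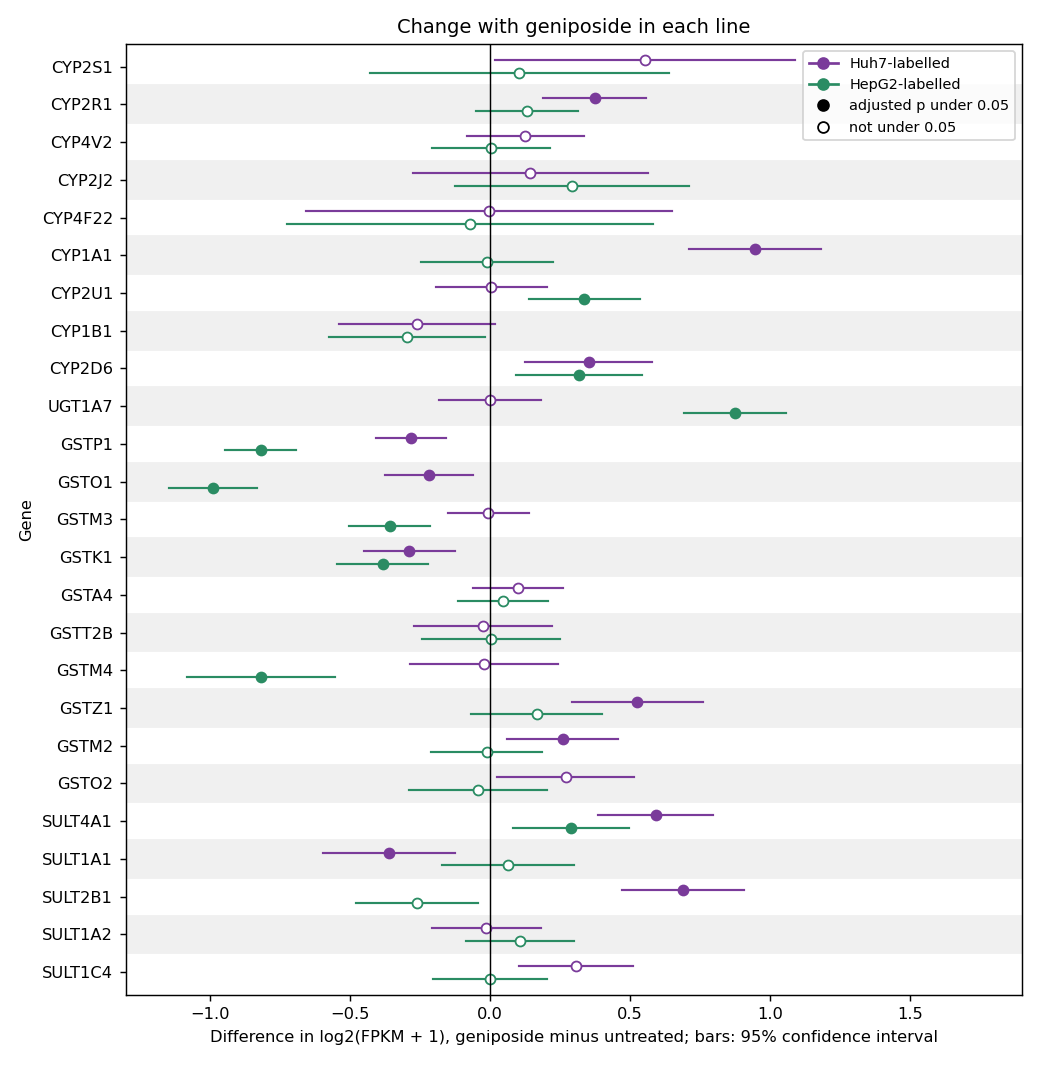
Difference in log2(FPKM + 1), geniposide minus untreated, for the 25 members that reached 1 FPKM, in Huh7 and in HepG2, with 95% confidence intervals from the limma fit (3 libraries per group), filled where the adjusted p was under 0.05. GSTP1, GSTO1, GSTM3, GSTK1 and GSTM4 lie left of 0 in HepG2, CYP1A1 and SULT2B1 lie farthest right among the Huh7 points, and UGT1A7 among the HepG2 points.

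Without the geniposide library of replicate 3, 19 members were called in Huh7, 13 higher and 6 lower, including the same 11 in the same directions. In this fit 46.1% of all filtered genes were called, 3503 higher and 3651 lower of 15518. Of the 19, CYP2C18, CYP2E1 and SULT1C4 came from the fit without the filter, which that share does not cover. CYP genes made up most of the gain. CYP2S1, a P450 of epithelial barriers that acts on retinoic acid and eicosanoids, had 6.77 and 7.74 FPKM in geniposide replicates 1 and 2 and 2.81 FPKM in replicate 3, against 3.35, 2.89 and 3.82 FPKM in untreated libraries. Its log2 difference was 0.55 (limma adjusted p = 0.102) with replicate 3 and 0.92 (limma adjusted p = 2.4e-05) without it. CYP4F22, the ω-hydroxylase of very long acyl chains in skin ceramides, had 2.63 and 3.26 FPKM in replicates 1 and 2 and 0.509 FPKM in replicate 3, against 1.70, 1.93 and 1.96 FPKM in untreated libraries. The sign of its difference turned, being -0.0029 with replicate 3 and 0.46 without it (limma adjusted p = 0.00174). CYP2J2, an arachidonic acid epoxygenase, had 2.83 and 2.73 FPKM in replicates 1 and 2 and 1.11 FPKM in replicate 3, against 1.64, 1.95 and 1.88 FPKM in untreated libraries, with the same change of call. CYP4V2, a fatty acid ω-hydroxylase of the eye, and SULT1C4, a fetal sulfotransferase, were likewise called higher, and CYP1B1 and CYP2E1, the ethanol-oxidising P450, lower. The remaining gain, CYP2C18, rested on 1 fragment in each of replicates 1 and 2 and none in untreated Huh7, below the floor of 3 fragments. Leaving out untreated replicate 3 instead left 7 calls, beside 1935 higher and 2178 lower over all filtered genes.

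**Figure D4:**
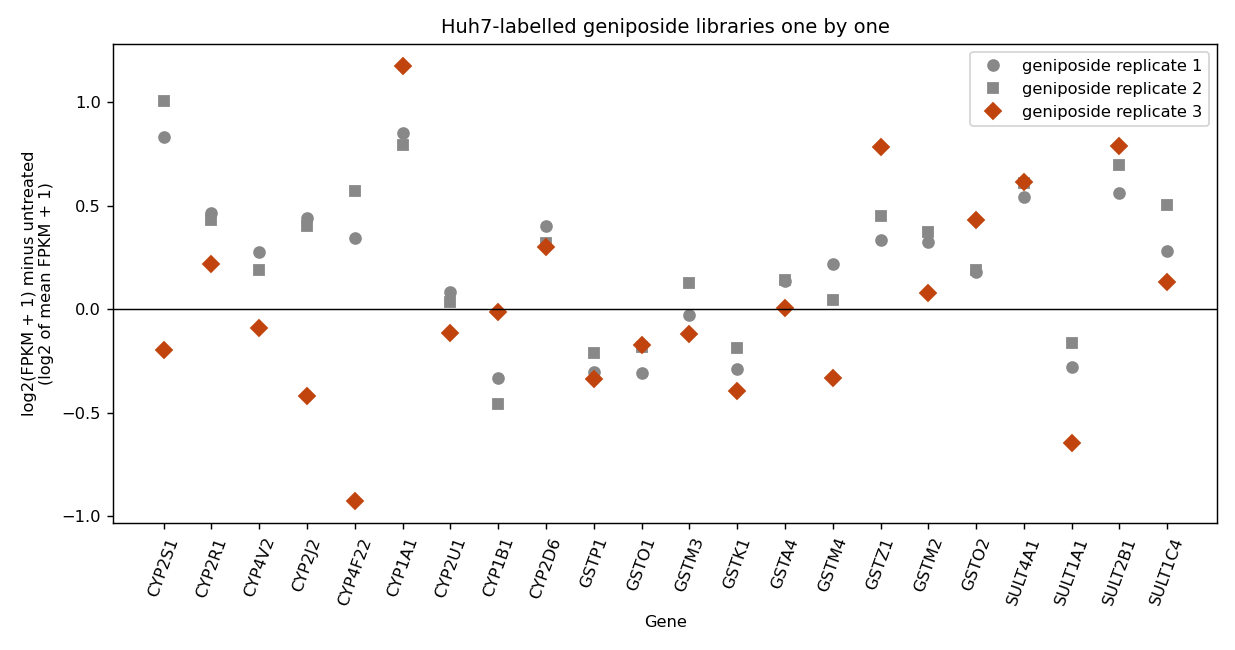
Each geniposide-treated Huh7 library minus the untreated Huh7 level, in log2(FPKM + 1), for the expressed members with at least 0.3 FPKM in untreated Huh7. Replicate 3 lies on the other side of 0 from replicates 1 and 2 for CYP2S1, CYP4F22, CYP2J2, CYP4V2, CYP2U1 and GSTM4, and on the same side for CYP1A1, SULT2B1, SULT4A1, GSTZ1, GSTP1, GSTK1 and GSTO1.

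In HepG2 cells 5 members fell with geniposide, all of them GST genes, and 7 rose: CYP2D6, CYP2U1, CYP4F2, CYP4F12, SULT4A1, UGT1A1 and UGT1A7. Over all filtered genes 42.5% were called, 21.0% higher and 21.5% lower, and of the members that passed the filter 9 of 24 were called, 4 higher and 5 lower. The 3 other calls came from the fit without the filter, in which 9.29% of all genes were called, 4.61% higher and 4.68% lower. The 10 filtered GST genes had a median difference of -0.20 in log2(FPKM + 1), against 0.00 over all filtered genes. The split of calls depended on scaling, with 4 higher and 7 lower after quantile normalization, beside 2950 higher and 3202 lower over all filtered genes.

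GSTP1 had 111, 103 and 117 FPKM in geniposide-treated HepG2 libraries, against 198, 197 and 191 FPKM in untreated ones. The groups were far apart, the mean was 1.77-fold lower and the log2 difference was -0.82 ± 0.06 (SE; limma adjusted p = 2.14e-06). GSTO1 (chr10:104235356-104267459, + strand, hg38) had 78.0, 75.2 and 90.8 FPKM with geniposide, against 162, 160 and 163 FPKM without, a 1.99-fold lower mean (log2 difference -0.99 ± 0.07 SE, limma adjusted p = 2.68e-06). GSTM4 (chr1:109656081-109674836, + strand, hg38), a mu-class enzyme, had 4.26, 4.19 and 4.80 FPKM with geniposide, against 8.33, 9.06 and 8.23 FPKM without. Its mean was 1.93-fold lower, 6.53% of its exonic bases overlap GSTM2, and no treated library reached any untreated one. GSTM3, the mu-class enzyme of brain and testis, fell to 24.5, 25.5 and 26.8 FPKM, against 33.5, 33.1 and 32.6 FPKM in untreated cells, and GSTK1 to 12.5 ± 1.2 FPKM, against 16.5 ± 0.508 FPKM (SD, n = 3 each). These 5 calls held in each alternative fit and with each library left out in turn. GSTA4, GSTO2, GSTZ1, GSTM2 and GSTT2B did not pass the test, with differences of 0.05, -0.04, 0.17, -0.01 and 0.00 in log2(FPKM + 1).

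UGT1A7 (chr2:233681938-233773299, + strand, hg38), an extrahepatic glucuronosyltransferase for planar phenols, was the single UGT gene past the filter. This gene passed the filter through the geniposide-treated HepG2 libraries alone, and its call in HepG2 held with no filter. It had 1.69, 1.9 and 1.95 FPKM in geniposide-treated HepG2 libraries, against 0.516, 0.474 and 0.667 FPKM in untreated ones. The mean was 3.34-fold higher, with a log2 difference of 0.87 ± 0.08 (SE; limma adjusted p = 1.54e-05). In fragments this was 103, 112 and 127 with geniposide and 32, 30 and 40 without. The UGT1A genes share their last exons, 40.6% of the exonic bases of UGT1A7 lie in other annotated genes, and no source used here states how such fragments were assigned. UGT1A1, the bilirubin transferase of the same array, had 4, 9 and 10 fragments with geniposide and 0, 0 and 1 without, and was called higher in the fit without the filter (limma adjusted p = 0.00438), a call lost with the 2 HepG2 groups fitted alone (limma adjusted p = 0.103). Fragments from the shared exons of these genes cannot be fully told apart.

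CYP2U1, a P450 of brain and thymus that hydroxylates long-chain fatty acids, had 1.10, 1.22 and 0.912 FPKM with geniposide in HepG2, against 0.717, 0.605 and 0.604 FPKM without (log2 difference 0.34 ± 0.09 SE, limma adjusted p = 0.011). CYP2D6 had 0.684 ± 0.0776 FPKM with geniposide and 0.35 ± 0.0239 FPKM without, and SULT4A1 1.68 ± 0.344 and 1.18 ± 0.137 FPKM (SD, n = 3 each). Both calls were lost in several other fits. Of the CYP4F genes of chromosome 19, CYP4F12, an arachidonic acid hydroxylase, had 5, 8 and 5 fragments with geniposide and 0, 3 and 0 without, a call lost with the 2 HepG2 groups fitted alone, with quantile normalization and without untreated HepG2 replicate 1 or 3. CYP4F2, the ω-hydroxylase of vitamin K and leukotriene B4, had 2, 3 and 4 fragments with geniposide and none without. CYP4F2 lies at the floor of 3 fragments per library, so no fold is given. CYP1A1 had 0.857 ± 0.031 FPKM with geniposide and 0.872 ± 0.0592 FPKM without in HepG2 (SD, n = 3 each), with a 95% confidence interval of the log2 difference from -0.25 to 0.22. CYP1B1 had 0.951 ± 0.112 and 1.4 ± 0.184 FPKM (SD, n = 3 each) and SULT2B1 0.127 ± 0.0473 and 0.35 ± 0.0411 FPKM (SD, n = 3 each), without passing the test at limma adjusted p of 0.0817 and 0.0541. SULT2B1 was called lower in HepG2 in 5 other fits, at limma adjusted p of 0.0041 to 0.0383, and CYP1B1 in 2, with the 2 HepG2 groups fitted alone (0.0229) and with quantile normalization (0.0371). CYP2J2 had 9, 10 and 16 fragments with geniposide in HepG2 and 0, 4 and 0 without, and did not pass the test. It was called higher with TPM scaling, the pseudocount of 0.1, voom and the 2 HepG2 groups fitted alone (limma adjusted p of 0.00634 to 0.0418). Without the geniposide library of Huh7 replicate 3, which also enters the shared estimate of spread, SULT2B1 and CYP1B1 were called lower and CYP2J2 higher in HepG2, making 15 calls. Calls over all filtered genes grew as well, to 4107 higher and 4235 lower of 15518, from 3258 and 3344. The gain among members is therefore not particular to them.

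Other quantities moved with treatment in HepG2. The cholangiocyte-type genes (KRT7, KRT19, MUC1, EPCAM, SOX9 and CFTR) summed to 158.1 to 161.1 FPKM with geniposide and 314.8 to 324.8 FPKM without, with 2 of 6 at 1 FPKM or more with geniposide and 3 of 6 without. The genes of this list did not move together: KRT7 fell to a mean of 72.9 FPKM with geniposide, against 278.9 FPKM without, and MUC1 rose to 84.9 FPKM, against 38.7 FPKM (limma adjusted p = 8.14e-10 and 5.6e-07). The hepatoma genes AFP, GPC3, DLK1, IGF2 and H19 summed to 124.2 to 318.7 FPKM with geniposide and 66.3 to 79.6 FPKM without, with H19 the single gene of the 5 at 1 FPKM or more. In Huh7 the hepatoma genes summed to 8.74 to 24.4 FPKM with geniposide and 25.8 to 28.1 FPKM without, with GPC3 at 8.55 FPKM in replicate 3. Genes of squamous and intestinal epithelium, led by CDX2, summed to 8.79 to 10.6 FPKM with geniposide and 13.7 to 15.4 FPKM without in Huh7, with 1 and 2 of 6 at 1 FPKM or more, and to at most 0.157 FPKM in HepG2. Genes of fibroblasts, endothelium and leukocytes summed to 35.2 to 37.6 FPKM with geniposide and 31.2 to 33.4 FPKM without in HepG2, with 3 of 10 at 1 FPKM or more in both. Of these 3, COL3A1 rose to 22.9 FPKM, against 14.7 FPKM, PDGFRB fell to 2.09 FPKM, against 4.33 FPKM, and COL1A1 had 10.3 and 11.9 FPKM with and without geniposide and did not pass the test. The part of these shifts in the results was not tested.

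A test of the difference itself (limma, HepG2 effect of geniposide minus Huh7 effect, adjusted p under 0.05) called 9 members. Of these, 7 came from the 24 filtered members, where 27.8% of all filtered genes were called, and 2 from the fit without the filter, where 5.13% were (2.62% positive and 2.50% negative). Among the 7, CYP1A1, SULT2B1 and UGT1A7 had passed the filter through a geniposide-treated group alone. GST genes fell further in HepG2: the difference was -0.77 ± 0.10 for GSTO1, -0.54 ± 0.08 for GSTP1, -0.80 ± 0.17 for GSTM4 and -0.35 ± 0.09 for GSTM3 (log2 units, SE), with limma adjusted p of 0.000435, 0.000932, 0.0061 and 0.0172. GSTM4 averaged 1.47 and 1.48 FPKM and GSTM3 8.10 and 8.11 FPKM in geniposide-treated and untreated Huh7, so their fall was measured in HepG2. For GSTK1, which was lower with geniposide in both lines, the difference was -0.10 with a 95% confidence interval from -0.32 to 0.13.

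CYP1A1 and SULT2B1 were higher with geniposide in Huh7 and were not called higher in HepG2. The difference was -0.96 ± 0.15 for CYP1A1 and -0.95 ± 0.14 for SULT2B1 (log2 units, SE; limma adjusted p = 0.00123 and 0.000859). UGT1A7 had a difference of 0.87 ± 0.12 (SE; limma adjusted p = 0.000493), with 0 fragments in all 6 Huh7 libraries. UGT1A1 and CYP4F2 had small differences of 0.15 and 0.09 on few fragments, again with none in Huh7. For UGT1A7, UGT1A1 and CYP4F2 the difference therefore repeats the HepG2 effect, and a Huh7 response could not be measured. Without Huh7 geniposide replicate 3 this test called 15 members, 8 of them among the 9, beside 39.8% of all filtered genes. Of the 15, CYP2C18, CYP2E1 and CYP4F2 came from the fit without the filter, which that share does not cover. UGT1A1 was then lost at a limma adjusted p of 0.0601, while CYP2S1 (-0.82), CYP4F22 (-0.53), GSTM2 (-0.36), CYP2R1 (-0.32), SULT1A1 (0.28), CYP2E1 (0.19) and CYP2C18 (-0.03, on 1 fragment in each of replicates 1 and 2) were gained.

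**Figure D5:**
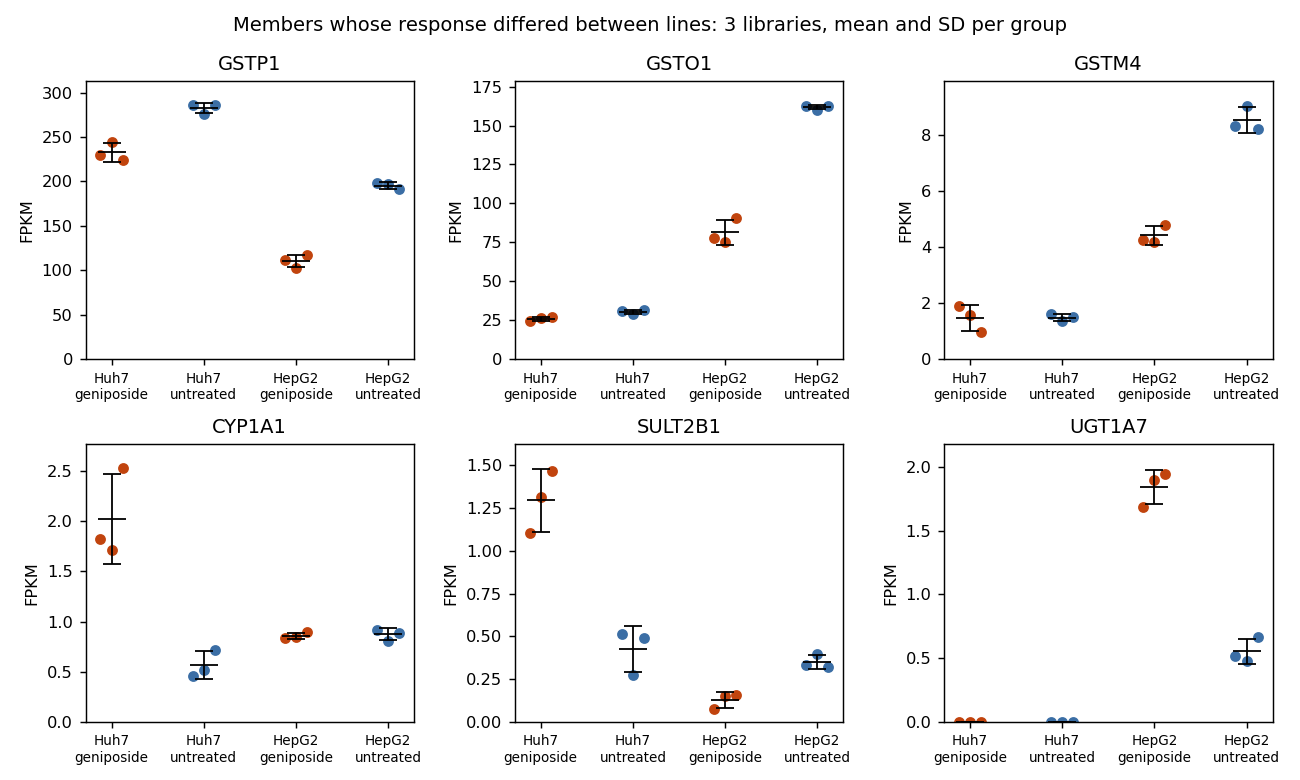
FPKM in each library (points), with the group mean (dash) and SD (error bar, n = 3), for 6 members called in the test of the difference between the geniposide effects, on axes that start at 0. GSTP1, GSTO1 and GSTM4 drop most in geniposide-treated HepG2, CYP1A1 and SULT2B1 are highest in geniposide-treated Huh7, and UGT1A7 is at 0 in both Huh7 groups.

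The untreated lines carried different sets of these enzymes. Of the 83 members, 26 differed between untreated HepG2 and untreated Huh7, 11 higher and 15 lower in HepG2, of which 20 were among the 24 filtered members. Called genes made up 71.8% of all filtered genes and 21.1% of all genes without the filter (9.97% higher and 11.1% lower), so a difference between the lines was the usual state of an expressed gene. On the TPM scale the median difference of all filtered genes moved to -0.27 from -0.01. The members then split into 8 higher and 18 lower, beside 4234 higher and 7347 lower over all filtered genes. The directions of the called members named next held on that scale, and CYP1A1, CYP1B1 and SULT1A3 lost their calls on it.

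GSTO1 and the mu-class genes set HepG2 apart. GSTO1 had 162, 160 and 163 FPKM in untreated HepG2 and 30.8, 28.6 and 31.4 FPKM in untreated Huh7, a 5.34-fold higher mean (log2 difference 2.38 ± 0.07 SE, limma adjusted p = 1.31e-10). GSTM3 had a mean of 33.1 ± 0.461 FPKM in HepG2 and 8.11 ± 0.418 FPKM in Huh7, and GSTM4 8.54 ± 0.452 and 1.48 ± 0.132 FPKM (SD, n = 3 each). Their neighbour GSTM2 in the same array ran the other way, with 17 fragments over the 3 HepG2 libraries and 665 over the 3 Huh7 libraries. GSTT2B, a theta-class enzyme, had 8.26, 10.5 and 10.4 FPKM in HepG2 and 1 fragment over the Huh7 libraries, and 78.5% of its 100-base stretches also occur in other genes. GSTP1 was 1.45-fold lower in HepG2, and GSTA4 2.31-fold lower at 5.32 ± 0.381 FPKM in HepG2 and 12.3 ± 1.13 FPKM in Huh7 (SD, n = 3 each). GSTK1, GSTZ1 and GSTO2 did not pass the test on the FPKM scale and were called lower in HepG2 on the TPM scale.

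Of the 9 CYP genes past the filter, 6 were called lower and 3 higher in untreated HepG2 than in untreated Huh7, and CYP2E1 and CYP4X1 were called lower in the fit without the filter. CYP4V2 had 2 fragments over the 3 HepG2 libraries and 989 over the 3 Huh7 libraries, CYP2J2 4 and 276, and CYP4F22 6 and 250. CYP4X1, a P450 of brain and aorta, had 0 in HepG2 and 82 in Huh7, at least 8.01-fold lower by the floor of 3 fragments per library. CYP2R1 was 2.61-fold, CYP2U1 2.34-fold and CYP2D6 2.52-fold lower, and CYP2E1 had 4 fragments in HepG2 and 130 in Huh7, with 23.9% of its exonic bases overlapped on the opposite strand. CYP2S1 ran against this, at 8.57 ± 0.169 FPKM in HepG2 and 3.36 ± 0.465 FPKM in Huh7 (SD, n = 3 each; log2 difference 1.14, limma adjusted p = 0.00134). CYP1B1 and CYP1A1 were called higher, 1.69-fold and 1.54-fold, CYP1A1 lost its call in most leave-one-out fits, and CYP1B1 lost its call with no filter and without untreated HepG2 or Huh7 replicate 2.

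Sulfotransferases split by gene. SULT4A1 was 7.44-fold lower in untreated HepG2, at 1.18 ± 0.137 FPKM against 8.81 ± 0.685 FPKM in untreated Huh7 (SD, n = 3 each). The neighbouring phenol sulfotransferase genes SULT1A1 and SULT1A2 were higher in HepG2, with 5.34 ± 0.165 and 1.87 ± 0.0819 FPKM in HepG2 and Huh7 for SULT1A1 and 107 fragments against 1 for SULT1A2. SULT1A3, which sulfates dopamine, was higher with 37 fragments in HepG2 and 16 in Huh7, but 80.4% of its 100-base stretches occur elsewhere in the annotation, and the call was also lost with the 2 groups fitted alone, with the replicate block and in 10 of 12 leave-one-out fits. SULT1C4, SULT2A1, which sulfates DHEA and bile acids, and SULT1C2 had 0 fragments in both HepG2 groups, against 104, 36 and 40 in untreated Huh7. The SULT2A1 call was lost with the 2 groups fitted alone and with the replicate block. UGT1A7 had 102 fragments in untreated HepG2 and none in untreated Huh7, at least 13.0-fold higher by the same floor.

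Of the members with at least 30 fragments that passed no test, CYP2W1, a P450 known from fetal gut and colon tumours, reached a highest group mean of 0.896 FPKM in geniposide-treated HepG2, where its libraries had 0.592, 1.45 and 0.645 FPKM, and CYP3A5 one of 0.245 FPKM in geniposide-treated Huh7. GSTO2, an omega-class enzyme next to GSTO1, had 1.13, 1.15 and 1.54 FPKM in geniposide-treated Huh7 and 0.937, 0.725 and 0.992 FPKM in untreated Huh7 (limma adjusted p = 0.0859).

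The genes that supply cofactors to these enzymes fell with geniposide more often than they rose. Of 13 listed and all tested, 1 rose and 9 fell in Huh7, where 16.4% and 18.1% of all filtered genes rose and fell, and none rose and 6 fell in HepG2, where 21.0% and 21.5% did. The list was chosen with earlier results of these data known, so its direction is no independent evidence. Its medians were -0.37 and -0.27 in log2(FPKM + 1), beside medians near 0 over all filtered genes. The PAPS pathway was represented in Huh7 by PAPSS2, which makes PAPS, at 7.80 ± 1.6 FPKM with geniposide and 14.6 ± 0.9 FPKM without, and by SLC35B2, its Golgi carrier, at 13.6 ± 0.5 and 19.5 ± 0.68 FPKM (SD, n = 3 each). UGP2, which makes UDP-glucose, had 4.86 ± 0.63 and 6.93 ± 0.32 FPKM there (SD, n = 3 each). In HepG2 those that fell included GSR, which reduces oxidised glutathione, at 15.5 ± 1.6 FPKM with geniposide and 27.1 ± 0.73 FPKM without, and GSS, glutathione synthetase, at 7.93 ± 0.11 and 13.3 ± 0.1 FPKM (SD, n = 3 each). GSS was the gene that rose in Huh7, at 10.2 ± 1.5 FPKM with geniposide and 8.34 ± 0.25 FPKM without. GCLM, the modifier of glutamate-cysteine ligase, fell in both lines.

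Of 29 other phase I and electron transfer genes, 18 were tested, with 3 higher and 5 lower in Huh7 and 6 higher and 6 lower in HepG2. Over all filtered genes 34.5% were called in Huh7 and 42.5% in HepG2, so 8 of 18 in Huh7 is near the background, and the counts of the lists that follow are to be read against the same shares. POR, the electron donor of the microsomal P450s, had 22.8 ± 0.57 FPKM with geniposide and 30.8 ± 1.2 FPKM without in HepG2 (limma adjusted p = 0.000263), and 10.5 ± 0.71 and 11.5 ± 0.68 FPKM in Huh7 without passing the test (SD, n = 3 each). FDX1, the ferredoxin of the mitochondrial P450s, and ADH5, formaldehyde dehydrogenase, fell in both lines. EPHX1, the microsomal epoxide hydrolase, had 72.5 ± 6.1 FPKM with geniposide and 35.0 ± 0.72 FPKM without in HepG2, and PTGS1, cyclooxygenase 1, 58.5 ± 2.1 and 16.2 ± 0.87 FPKM (SD, n = 3 each). EPHX2, the soluble epoxide hydrolase, rose in Huh7 to 3.81 ± 0.85 FPKM, against 1.78 ± 0.24 FPKM, and CES2, a carboxylesterase, fell there to 6.18 ± 1.6 FPKM, against 9.79 ± 0.27 FPKM (SD, n = 3 each).

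Of 21 other conjugation genes 14 were tested, with 2 higher and 4 lower in Huh7 and 2 higher and 6 lower in HepG2, beside 34.5% and 42.5% of all filtered genes. The nicotinamide methyltransferase NNMT fell in HepG2 to 19.4 ± 1.3 FPKM, against 46.5 ± 0.33 FPKM, and the microsomal glutathione transferase MGST1 to 12.8 ± 1.2 FPKM, against 17.7 ± 0.92 FPKM (SD, n = 3 each). GUSB, which removes glucuronic acid, rose in both lines, to 58.4 ± 0.45 FPKM with geniposide against 33.5 ± 1.6 FPKM in HepG2 and to 19.3 ± 0.76 FPKM against 15.7 ± 0.43 FPKM in Huh7 (SD, n = 3 each). STS, steroid sulfatase, and UGT8, which makes galactosylceramide, fell in Huh7. TPMT, thiopurine methyltransferase, fell in both lines. Of 22 P450 genes outside families 1 to 4, 8 were tested: none rose and 2 fell in Huh7 (CYP27C1 and CYP51A1), and 3 rose and 1 fell in HepG2. CYP11A1, the cholesterol side-chain cleavage enzyme of steroid-forming tissue, had 13.3 ± 0.74 FPKM with geniposide and 6.28 ± 0.4 FPKM without in HepG2 (SD, n = 3 each; limma adjusted p = 1.32e-06), CYP27B1, the 1-alpha hydroxylase of vitamin D, and CYP39A1, an oxysterol hydroxylase, rose as well, and CYP27C1 fell.

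Among 23 regulators, 15 were tested, with 5 higher and 3 lower in Huh7 and 6 higher and 1 lower in HepG2, beside the 34.5% and 42.5% of all filtered genes called. AHR had 1.38 ± 0.15 FPKM with geniposide and 0.958 ± 0.076 FPKM without in Huh7, and 4.65 ± 0.24 and 2.78 ± 0.15 FPKM in HepG2 (SD, n = 3 each), and was called higher in both lines (limma adjusted p = 0.0101 and 7.7e-05). Its partner ARNT was called higher in HepG2, at 18.96 ± 0.386 FPKM with geniposide and 15.7 ± 0.44 FPKM without (SD, n = 3 each). Of 5 other genes driven by AHR (AHRR, ALDH3A1, NFE2L2, NQO1 and TIPARP), none rose and 1 fell in Huh7, and 1 rose and 1 fell in HepG2. NQO1, quinone reductase, fell in both, to 1.61 ± 0.31 FPKM against 2.11 ± 0.13 FPKM in Huh7 and to 42.9 ± 4.3 FPKM against 61.7 ± 0.76 FPKM in HepG2 (SD, n = 3 each). AHRR, the AHR repressor, had 5.996 ± 1.16 FPKM with geniposide and 5.28 ± 0.11 FPKM without in Huh7 and 11.5 ± 0.73 and 13.6 ± 0.78 FPKM in HepG2 (SD, n = 3 each), without passing the test. TIPARP had 466, 445 and 1124 fragments in geniposide-treated Huh7 replicates 1, 2 and 3, against 374, 332 and 325 in untreated ones. ALDH3A1 had 0.205 ± 0.0545 FPKM with geniposide and 0.337 ± 0.0406 FPKM without in Huh7 (SD, n = 3 each). Neither passed the test in Huh7. NFE2L2 did not pass the test in either line, at 6.75 ± 1.6 and 6.57 ± 0.12 FPKM with and without geniposide in Huh7 and 12.9 ± 0.75 and 11.5 ± 0.17 FPKM in HepG2 (SD, n = 3 each), and KEAP1, its inhibitor, fell in Huh7.

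PPARA, the fatty acid receptor, rose in HepG2 to 5.73 ± 0.67 FPKM, against 3.5 ± 0.32 FPKM, and in Huh7 to 3.79 ± 0.45 FPKM, against 2.98 ± 0.2 FPKM (SD, n = 3 each; limma adjusted p = 0.000552 and 0.0498). NR3C1, the glucocorticoid receptor, rose in HepG2, and CEBPB, an acute-phase factor, rose in both lines, in Huh7 to 56.8 ± 7.1 FPKM, against 19.8 ± 1.95 FPKM (SD, n = 3 each). RXRA fell in Huh7 to 6.35 ± 0.98 FPKM, against 7.98 ± 0.4 FPKM, and did not pass the test in HepG2, and RXRB rose in both. NR1I3 stayed under 1 FPKM, at 0.573 ± 0.26 and 0.287 ± 0.037 FPKM in geniposide-treated and untreated Huh7 and 0.363 ± 0.084 and 0.155 ± 0.099 FPKM in HepG2 (SD, n = 3 each). Without the geniposide library of Huh7 replicate 3, more of all filtered genes were called. These were 3503 higher and 3651 lower of 15518 in Huh7 (46.1%), and 4107 higher and 4235 lower in HepG2. The list counts of this fit are to be read against those numbers. The cofactor genes counted 1 higher and 10 lower in Huh7 and 0 higher and 8 lower in HepG2. The P450 genes outside families 1 to 4 then counted 2 higher and 3 lower in Huh7 and 5 higher and 1 lower in HepG2, and the AHR-driven genes 1 higher and 2 lower in Huh7 and 3 higher and 2 lower in HepG2. The other phase I genes counted 3 higher and 6 lower in Huh7 and 7 higher and 6 lower in HepG2, and the other conjugation genes 2 higher and 5 lower in Huh7 and 2 higher and 8 lower in HepG2. The regulators counted 5 higher and 4 lower in Huh7 and 9 higher and 2 lower in HepG2.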

How the data were processed

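RNA was measured in 12 poly(A) libraries, 3 for each of 4 groups. The submitters' processing notes list CASAVA, fastp and genome build hg38. Which aligner or counter followed is unstated, not given in the sources used here. Deposited FPKM values were computed by the authors and were taken as they stand, and 0 columns were left over. The labels' protocols describe no step that marks the strand, so overlapping genes on opposite strands cannot be told apart. FPKM times gene length gave whole fragments for 100% of values within 0.05. The library divisor implied by the values was 1.15 to 1.17 times the recovered fragments in geniposide-treated Huh7. It was 1.09 to 1.10 times in untreated Huh7 and 0.895 to 0.914 times in HepG2. FPKM is therefore not scaled to the recovered fragments, and the scaling differs between groups.

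Members (protein-coding, by name) and all gene lists were chosen with earlier results of these data known. The test was limma (version 3.58.1, R 4.3.3), applied to log2(FPKM + 1), a scale that understates the change of low genes: 1 model with 4 group means, 8 residual degrees of freedom, variance trend, two-sided tests, Benjamini-Hochberg adjustment at 0.05 over 15518 genes at 1 FPKM in 3 libraries, and members below that from the fit without a filter. Named were members at 1 FPKM in any group or called in any comparison, those with 30 fragments and, per gene list, up to 4 called genes of smallest p and fixed regulators. A few genes under that rule are not reported here. Shared exons and 100-base stretches were counted in GENCODE 29. The fit was checked on simulated data. Alternatives were another pseudocount (0.1), filters (none, 5 FPKM), TPM scaling, voom on recovered fragments, the compared groups alone, a replicate block, leaving out each library, and quantile normalization, chosen after seeing the data.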

Additional observations from a re-analysis of the deposited data

Results flagged for a closer look

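The geniposide effect differed between the lines, HepG2 minus Huh7 in log2(FPKM + 1) by the test of the difference itself in limma, for 9 members. It was lower in HepG2 for CYP1A1 (-0.96), SULT2B1 (-0.95), GSTM4 (-0.80), GSTO1 (-0.77), GSTP1 (-0.54) and GSTM3 (-0.35), and higher in HepG2 for UGT1A7 (0.87), UGT1A1 (0.15) and CYP4F2 (0.0895). The 2 smallest rest on 24 fragments of UGT1A1 and 9 of CYP4F2 over all 12 libraries. UGT1A7, UGT1A1 and CYP4F2 had no fragment in any Huh7 library, so their differences repeat the HepG2 effect and measure no Huh7 response. Of the 9, CYP1A1, GSTM4, GSTO1, GSTP1, SULT2B1 and UGT1A7 were called in every alternative fit and with each library left out in turn, while CYP4F2, GSTM3 and UGT1A1 were not.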

How the results depend on the processing

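Geniposide called 11 members in Huh7, 6 when the 2 Huh7 groups were fitted alone and 7 with no filter on low values. Over all filtered genes the Huh7 calls were 2545 higher and 2812 lower, and 1524 and 1742 with the 2 groups alone. With no filter 2142 of 58735 genes were called higher and 2116 lower. The member counts are to be read against these numbers. Leaving out each library in turn gave 7 to 19 calls in Huh7, 9 to 15 in HepG2, 8 to 15 for the difference and 23 to 26 between the untreated lines, with 19 and 15 for Huh7 and the difference without Huh7 geniposide replicate 3. Calls over all filtered genes moved too. Those in Huh7 ran from 1935 to 3503 higher and 2173 to 3651 lower. Those in HepG2 ran from 2705 to 4107 higher and 2820 to 4235 lower. For the difference they ran from 1700 to 3036 and 1627 to 3134, and between lines from 5283 to 6056 and 5170 to 6049. In Huh7 they reached 3503 higher and 3651 lower without the library of geniposide replicate 3, from 2545 and 2812. The log2 difference of CYP4F22, geniposide against untreated, Huh7, turned from -0.0029 to 0.458 without that library, and ranged from -0.2904 to 0.458 over the left-out libraries. Calls held under all alternatives for 5 of 11 members in Huh7, 8 of 12 in HepG2, 6 of 9 for the difference and 22 of 26 between lines. The cause of the other losses was not tested. The number of members at 1 FPKM was 25, at 0.5 FPKM 27, at 0.1 FPKM 33 and at 1 TPM 31. Deviations of same-numbered libraries correlated between -0.061 and 0.02, and those of differently numbered ones between -0.0466 and 0.0716. No shared replicate effect was seen, but 3 libraries per group cannot settle whether the samples were paired. A replicate block gave 9 calls in Huh7, 11 in HepG2, 7 for the difference and 26 between lines, in place of 11, 12, 9 and 26. Over all filtered genes the block called 2112 higher and 2408 lower in Huh7, and 2906 and 3046 in HepG2. For the difference it called 1637 and 1523, and between lines 5496 and 5405. Depth limits members under 3 fragments per library.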

Other observations

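Several relatives of the members outside the protein-coding biotype gave signal. CYP4F34P, an unprocessed pseudogene, had 2.13, 1.32 and 1.73 FPKM in geniposide-treated HepG2 libraries, against 0.419, 0.137 and 0.578 FPKM in untreated HepG2, and at most 0.247 FPKM in Huh7 libraries. CYP4F26P, annotated as a long non-coding RNA, had 6.40 to 10.1 FPKM across all 12 libraries, above every protein-coding CYP4 gene. CYP4F32P had 1.92 to 2.66 FPKM in geniposide-treated and 1.44 to 2.24 FPKM in untreated Huh7 libraries, and 0 in HepG2. GSTT2, the near-identical partner of GSTT2B with a pseudogene biotype, had 1.04, 1.01 and 1.35 FPKM in geniposide-treated HepG2 libraries and 1.42, 1.39 and 1.35 FPKM in untreated ones, and 0 in Huh7. CYP1B1-AS1, which lies opposite CYP1B1, had 0.78, 0.825 and 0.866 FPKM in geniposide-treated and 0.514, 0.451 and 0.625 FPKM in untreated HepG2, where CYP1B1 had lower means with geniposide. These values were not tested.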
